A study of Mus musculus with 8 samples.

Results

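The cadherins and non-clustered protocadherins of mouse primary visual cortex (V1) were taken as the 35 of 26711 measured genes whose symbols are Cdh or Pcdh followed only by a number, with Pcdh11x included. They comprised 23 cadherins and 12 protocadherins. Expression was measured by single-nucleus RNA-seq at postnatal day 21 in GR fl/fl mice, which carry loxP-flanked alleles of the glucocorticoid receptor (GR) gene Nr3c1. All of the mice received, at or just after birth, an AAV2/5 vector with the astrocyte promoter GfaABC1D. The vector encoded Cre in GR-KO mice and the inactive ΔCre in GR-Con mice, in both cases with a membrane-anchored EGFP. Mice of each genotype were reared under normal lighting (NR) or in darkness (DR). This gave 4 groups of 2 libraries, each library from 1 mouse, 1 male and 1 female per group by the library names. Nuclei were sorted on the DNA dye DRAQ5, and the study's methods give the gate as GFP-negative. Injection, floxed alleles and sort were thus shared by all groups, and Cre was driven by an astrocyte promoter rather than in every cell.

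Cadherins are calcium-dependent adhesion molecules of the cell surface. Classical cadherins bind partners on neighbouring cells through their outer cadherin repeats and are tied to actin by catenins, and type I and type II members differ in how their outermost repeats lock together. The non-clustered delta-protocadherins have longer outer parts and weaker adhesion, and the tails of several recruit the WAVE actin regulator. In cortex, combinations of these molecules mark layers and cell classes and take part in the sorting of neurons and the choice of synaptic partners.

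The data held 102330 nuclei of 20 annotated types, with 69372 excitatory neurons of 8 types, 10403 inhibitory neurons of 5 types and 22555 non-neuronal cells of 7 types. Libraries held 168632129 to 288774016 UMIs (counted RNA molecules), of which the members took 1.50%. Levels are counts per 1000000 UMIs (CPM) summed over the nuclei of a type in a library, and are given for libraries with at least 10 nuclei of the type. Chandelier cells (ChC), microglia, endothelial cells, smooth muscle cells with pericytes (SMC-Peri) and vascular leptomeningeal cells (VLMC) fell below that number in at least 1 library. The chandelier values come from 3 DR libraries alone (female GR-Con and both GR-KO), since no NR library held 10 such nuclei. Of 77 marker genes 67 were highest in the type they mark, and the exceptions lay in the L2/3, L4, L5IT, L5PT and L6IT lists, of which the L5PT and L6IT lists had 0 at the top. A barcode found in more than 1 library was carried by 2.40% of nuclei. The targeted gene Nr3c1 stood in astrocytes at 231 and 221 CPM in NR GR-Con (male and female, the order used throughout), 284 and 268 in NR GR-KO, 263 and 207 in DR GR-Con and 274 and 275 in DR GR-KO. These are 3′ tags counted over the whole gene, so they do not check the deletion of the floxed part. With 2 mice a group, p-values rest on few degrees of freedom.

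Of the 35 members, 30 reached 5 CPM in at least 1 cell type. The other 5 were Cdh15 (M-cadherin of muscle), highest at 0.271 CPM in L5PT, Cdh16 (0.0608 CPM in Pvalb), Cdh17 (0.0689 CPM in Astro), Cdh26 (2.11 CPM in ChC) and Pcdh12 (1.20 CPM in Endo). Separately, 30 members passed the low-count filter of a fit in at least 1 type. The detected members peaked in non-neuronal types in 13 cases, in excitatory types in 10 and in inhibitory types in 7. Their median tau, an index that is 0 for even expression and 1 for expression in a single type, was 0.349 against 0.296 over all 15789 features at 5 CPM or more, and 43.0% of those features lay at or above the members' median. For tau and its 5 CPM limit the means also took in libraries with fewer than 10 nuclei of a type, where single UMIs weigh heavily. In 18 of the 30 the type with the highest mean was also highest in each library that measured it.

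**Figure D1:**
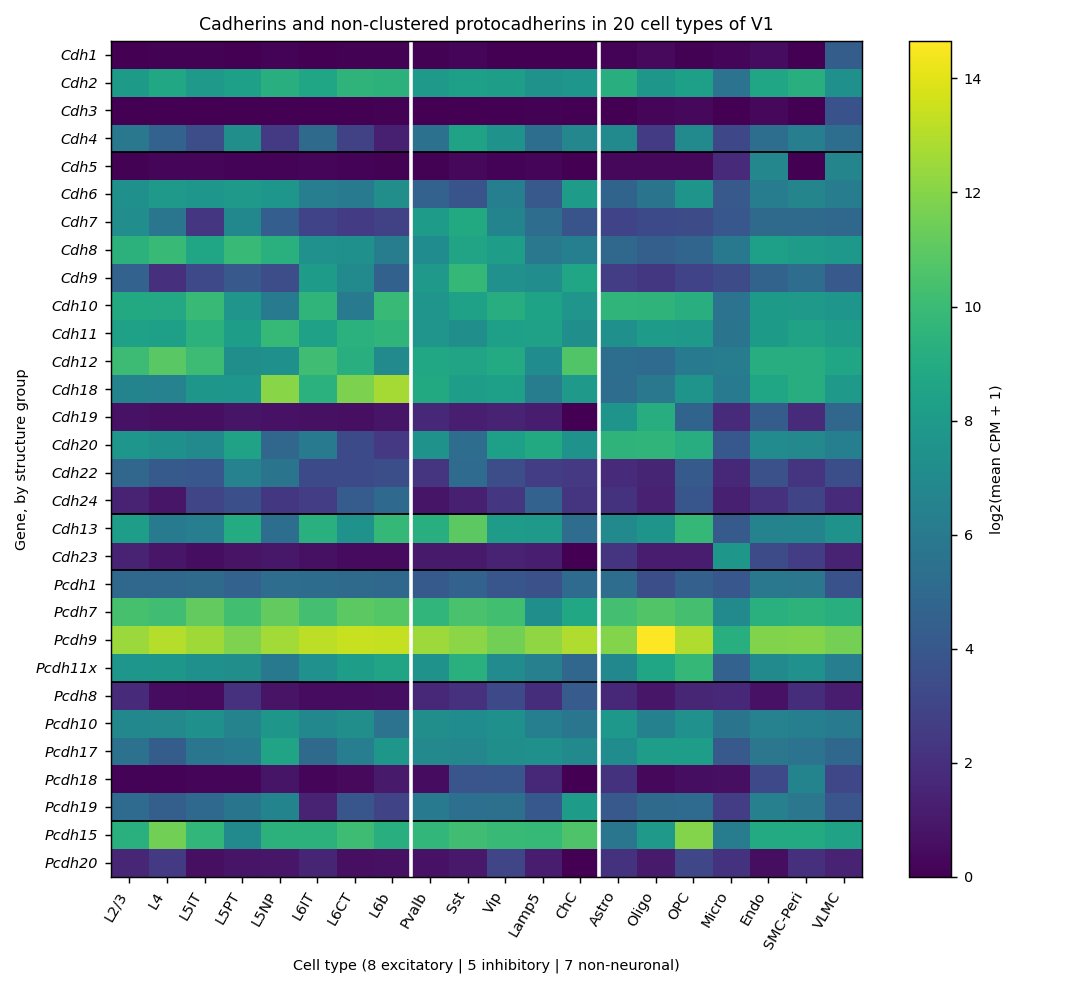
Mean level of each detected member (rows, by structure group) in 20 cell types (columns), as log2(mean CPM + 1). Cdh18 is brightest in L5NP, L6CT and L6b neurons, Cdh19 in astrocytes and oligodendrocytes, Cdh23 in microglia, and Cdh1 and Cdh3 in VLMC.

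Among type I classical cadherins, Cdh2 (N-cadherin, the broad neural form) was present in every type. It ranged from 46.6 ± 12.7 CPM, n = 5, in microglia (mean ± SD over libraries, n = 8 where no n is given) to 735 ± 71.9 CPM in L6CT neurons, which exceeded L6b neurons (689 ± 65.9 CPM) in 5 of 8 libraries and so did not differ from them beyond the spread. Cdh4 (R-cadherin) was highest in Sst interneurons at 350.2 ± 76.7 CPM, above Vip interneurons (185 ± 42.4 CPM) in 8 of 8 libraries. Cdh1 and Cdh3 (E- and P-cadherin, known from epithelia) reached 18.7 ± 16.6 and 12.1 ± 7.46 CPM, n = 7, in VLMC and 0.392 and 0.224 CPM in endothelial cells as the next type. Their profiles were the most alike of any pair (Pearson r = 0.99 over 20 types on log2(CPM + 1)), both being near 0 outside VLMC and measured in the same libraries.

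Most type II classical cadherins were highest in a neuronal type. Cdh18 stood at 6484 ± 533 CPM in L6b, 4229.7 ± 675 in L5NP and 3505 ± 554 in L6CT neurons, against 98.7 ± 21.6 in L2/3 and 91.1 ± 13.9 in L4 neurons, and L6b was above L5NP in 8 of 8 libraries. Cdh12 and Cdh8 were highest in L4, the layer that receives most thalamic input, at 1897 ± 164 CPM and 948 ± 92.2 CPM. Cdh8 in L5PT neurons (924 ± 75.4) was close to this, with L4 above it in 5 of 8 libraries. Cdh10 had near-equal means in L5IT (931 ± 104) and L6b neurons (925 ± 143), each being the higher in 4 of 8 libraries. Cdh11 was highest in L5NP (922 ± 47.1; above L6b in 7 of 8 libraries), Cdh22 in L5PT (90.5 ± 16.1; above L5NP in 8 of 8) and Cdh24 in L6b neurons (30.7 ± 5.66; above Lamp5 in 8 of 8). Sst interneurons held most Cdh9 (853 ± 157) and Cdh7 (478 ± 96.9), each the highest in 8 of 8 libraries. Cdh6 was highest in chandelier cells (276 ± 102, n = 3), followed by L5PT (236 ± 72.5) and L4 neurons (233 ± 27.2), with chandelier cells above L5PT in 3 of 3 libraries, all DR.

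Outside neurons, Cdh19 was highest in oligodendrocytes (559.9 ± 137 CPM) and next in astrocytes (188 ± 119 CPM), in that order in 8 of 8 libraries, with 27.2 CPM in VLMC as the third type. Cdh20 was shared by oligodendrocytes (784 ± 86.8 CPM), astrocytes (733 ± 89.9) and OPCs (570.1), with the first above the second in 6 of 8 libraries. Cdh5 (VE-cadherin of endothelial junctions) was at 111 ± 24.6 in endothelial cells and 100.2 ± 27.3 CPM, n = 7, in VLMC, the former higher in 4 of 7 libraries. The 4 endothelial markers summed to 91.3 and 382 CPM in VLMC of NR GR-Con, with 1 of the 4 seen in every VLMC library, and to 2167 and 2941 CPM in endothelial cells of that group, and their part in the VLMC value was not tested.

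Cdh13 (T-cadherin, lipid-anchored and without a cytoplasmic tail) was highest in Sst interneurons at 1987 ± 203 CPM, above OPCs (877 ± 60.1 CPM) in 8 of 8 libraries. Cdh23 and Pcdh15, the pair that forms tip links in hair cells, differed in place. Cdh23 was at 212 ± 17.0 CPM, n = 5, in microglia, or 22.7 times its mean in endothelial cells. Pcdh15 was found in all types, at 3977 ± 202 CPM in OPCs and 3004 ± 787 CPM in L4 neurons (OPCs higher in 7 of 8 libraries) and at 52.5 ± 20.4 CPM in astrocytes as the lowest type. Pcdh20 was low, with 7.57 ± 2.32 CPM in OPCs, 7.22 ± 1.47 in Vip interneurons (each the higher in 4 of 8 libraries) and 4.63 in L4 neurons.

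The delta-1 protocadherins were found in all 20 types. Pcdh9 was highest in oligodendrocytes at 25912 ± 1462 CPM, 2.34 times its mean in L6CT neurons and lowest in microglia (614 ± 232 CPM, n = 5). Pcdh7 was highest in L5IT (2256 ± 373 CPM) and L5NP neurons (2212 ± 120.2), in that order in 5 of 8 libraries. Pcdh11x was highest in OPCs (869 ± 51.3 CPM) and next in Sst interneurons (626 ± 70.2), in 8 of 8. Pcdh1 was highest in endothelial cells (57.3 ± 5.19 CPM, n = 7) and SMC-Peri (55.3 ± 24.2, n = 6), in that order in 4 of 6.

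Several delta-2 protocadherins were narrower. Pcdh18 was at 96.8 ± 62.6 CPM, n = 6, in SMC-Peri and 14.3 ± 3.37 CPM in Vip interneurons as the next type. Pcdh19, whose human counterpart is mutated in an X-linked epilepsy, was highest in chandelier cells (259.8 ± 24.5 CPM, n = 3, all DR) and next in L5NP neurons (97.8 ± 20.8 CPM over NR and DR). Pcdh8 (arcadlin) was at 17.5 ± 8.25 CPM, n = 3, all DR, in chandelier cells and 8.39 ± 1.84 CPM in Vip interneurons. Pcdh17 was highest in L5NP neurons (382 ± 44.2 CPM; above oligodendrocytes in 8 of 8 libraries). Pcdh10 had near-equal means in astrocytes (227 ± 19.9 CPM) and L5NP neurons (213 ± 21.9), each the higher in 4 of 8.

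To compare broad classes, counts were summed per class and library and tested within libraries (edgeR quasi-likelihood test, called at an adjusted p under 0.05 and at least a 2-fold difference). Neurons differed from non-neuronal cells in 18 of 33 members, 9 higher and 9 lower, where 47.1% of all genes were called (22.9% higher, 24.2% lower). The largest differences in favour of neurons were type II cadherins. Cdh12 stood at 1039 ± 141 CPM in neurons and 65.4 ± 28.9 in non-neuronal cells (log2 difference 4.53, SE 0.17, adjusted p = 1.4e-09), Cdh9 at 91.2 and 6.23 (4.37), Cdh8 at 567 and 40.3 (4.34) and Cdh18 at 827 and 81.3 (3.82). Cdh19 was at 0.707 ± 0.270 CPM in neurons and 279.9 ± 92.1 in non-neuronal cells (log2 difference -8.18, SE 0.13), and Cdh23 (1.03 and 17.2 CPM), Cdh20 (154 and 649) and Pcdh17 (62.0 and 202) were lower in neurons too. Pcdh17 turned to 0.68 in favour of neurons when each cell type was given equal weight, and Cdh20 then fell below the 2-fold limit (-0.62). The others kept their direction at smaller differences, of 2.34 for Cdh12, 2.88 for Cdh9, 2.14 for Cdh8, 1.98 for Cdh18, -5.01 for Cdh19 and -2.76 for Cdh23.

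Excitatory and inhibitory neurons differed in 15 of 31 members, 6 higher and 9 lower in excitatory neurons, where 26.8% of all genes were called (12.5% higher, 14.3% lower). Cdh6 was at 163 ± 25.2 CPM in excitatory and 32.6 ± 5.39 in inhibitory neurons (log2 difference 2.52, SE 0.07, adjusted p = 4.0e-11), followed by Cdh12 (1.63), Cdh8 (1.60) and Cdh18 (1.53). Pcdh18 (0.188 and 6.86 CPM), Cdh9 (55.6 and 379), Cdh4 (40.7 and 157) and Cdh13 (252 and 861) were lower in excitatory neurons, with log2 differences of -4.98, -2.62, -1.72 and -1.69. Each of these had its direction in 8 of 8 libraries. With equal weight of cell types Cdh12 fell below the 2-fold limit (0.34), and Pcdh18 (-1.86, adjusted p = 1.0) and Cdh13 (-0.45, adjusted p = 0.14) were no longer called.

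Upper excitatory neurons (L2/3 and L4) differed from deeper ones in 13 of 30 members, 7 higher and 6 lower, where 14.1% of all genes were called (7.06% higher, 7.09% lower). Cdh7 was at 106 ± 18.6 CPM in upper and 23.3 ± 7.17 in deeper neurons (log2 difference 2.26, SE 0.14, adjusted p = 1.7e-07), and Cdh8 (1.31), Pcdh15 (1.14) and Cdh12 (1.12) were higher as well. On the other side Cdh18 was at 95.7 ± 12.4 CPM in upper and 2076 ± 356 in deeper neurons (-4.39, SE 0.13), with Cdh24 (-3.14), Cdh9 (-3.07) and Pcdh17 (-1.23) also lower. In these sums Cdh8 and Cdh12 were thus higher in neurons, in excitatory neurons and in the upper layers. The sums are nested, upper neurons being part of the excitatory and of the neuronal sums, so these are not separate results. For Cdh12 the excitatory difference was 0.34, below the 2-fold limit, with equal weight of cell types. With equal weight of cell types the layer differences of Cdh18 (-3.59), Cdh24 (-2.97) and Cdh9 (-1.85) were smaller. Those of Cdh7 (3.01), Cdh8 (1.59), Pcdh15 (1.36), Cdh12 (2.01) and Pcdh17 (-1.64) were larger.

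The genotypes were compared within each rearing condition, to ask which members differed when GR was targeted in astrocytes. In NR 20 of 406 pairs of a member and a cell type passed at an adjusted p under 0.05 (edgeR likelihood ratio test). In GR-KO 15 of them rose and 5 fell, where 0.804% of all pairs of a gene and a type were called (0.491% higher, 0.313% lower). The quasi-likelihood test called 7 member pairs and 0.361% of all pairs. The count was 12 and 9 without the male and female NR GR-Con libraries and 37 and 41 without those of NR GR-KO. It was 46 with sex as a term, 8 with all 8 libraries in the fit, 12 by DESeq2 and 11 without neuron-enriched members in non-neuronal types. For these alternative fits the share of all pairs is not given, so a change in the count may not be particular to the members. Leaving out 1 of 2 libraries leaves an arm of 1, whose spread is then taken from the other groups in the fit and from the trend over genes, so a call lost in that way does not show that the difference was smaller. Of the 120 fits in which a left-out library ended the call of a named pair, 120 kept its direction, and in 114 the log2 difference was within 1.5 times that of all libraries (range 0.52 to 1.23 times). Named pairs were chosen because they were called in these libraries, most of which each such fit reuses. Their kept direction and size are thus no separate support. Astrocytes held 7 of the calls, among 28 members tested there, where 7.11% of all genes were called.

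Cdh19 (chr1:110888326-110977584, minus strand, in GENCODE gene models on mm10) fell in astrocytes of GR-KO mice. It stood at 373 and 294 CPM in NR GR-Con, 111 and 96.2 in NR GR-KO, 318 and 120.3 in DR GR-Con and 80.7 and 108 in DR GR-KO. All 4 GR-KO libraries lay below all 4 GR-Con libraries, with the female DR GR-Con library close to them. In NR it fell by 1.75 on the log2 scale (SE 0.17, adjusted p = 9.1e-21 by the likelihood ratio test and 6.3e-04 by the quasi-likelihood test), and by 1.58 to 1.90 with each of the 4 libraries left out. Over both rearings it fell by 1.47 (SE 0.28, adjusted p = 1.4e-05 and 0.017), and stayed called with each of the 8 libraries left out. In DR alone the difference was -1.20 (SE 0.46, adjusted p = 0.36), and the difference in NR minus that in DR was -0.56 (SE 0.54, adjusted p = 1.0). Oligodendrocytes, which hold more Cdh19, were at 739 and 586 CPM in NR GR-Con and 787 and 536 in NR GR-KO (log2 difference -0.04, SE 0.23, adjusted p = 1.0). The 5 oligodendrocyte markers, all seen in every astrocyte library, summed in astrocytes to 132 and 114 CPM in NR GR-Con and 193 and 151 in NR GR-KO, and their part in the difference was not tested. The 5 astrocyte markers summed to 4252 and 3889.9 and to 3695 and 3705 CPM. Cdh19 was also called in Pvalb interneurons in NR, at 6.86 and 2.41 CPM in GR-Con and 0.523 and 1.25 in GR-KO (-2.45, SE 0.59, adjusted p = 0.017), from 168 UMIs over the 8 libraries. This was not called by the quasi-likelihood test (adjusted p = 0.64) or DESeq2 (adjusted p = 0.29). The 5 astrocyte markers summed in Pvalb interneurons to 44.6 and 24.2 CPM in NR GR-Con and 20.5 and 24.4 in NR GR-KO and the 5 oligodendrocyte markers to 112 and 55.0 and 95.6 and 66.0, each marker seen in every library, and their part in this call was not tested. In sums over nuclei, a change in the share of nuclei that hold a transcript and a change in its level per nucleus were not separated here.

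**Figure D2:**
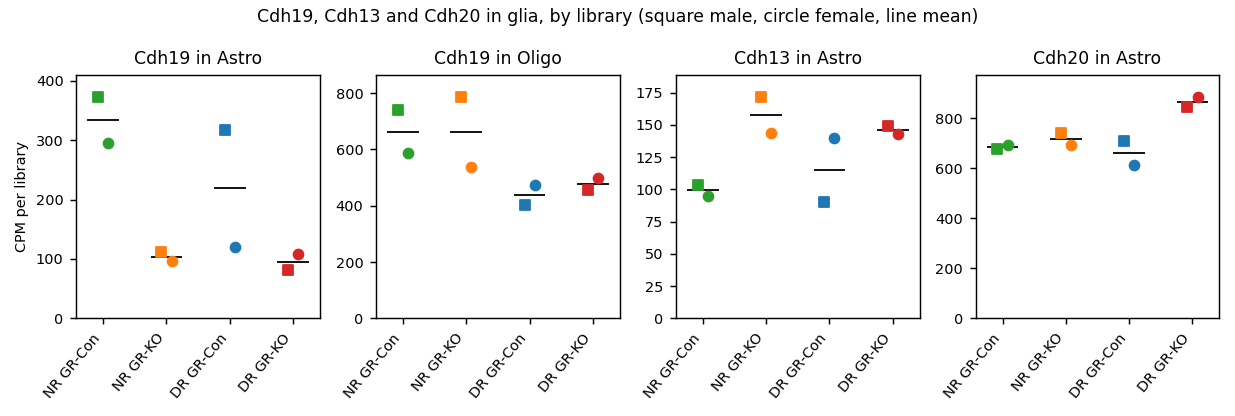
CPM per library of Cdh19 in astrocytes and oligodendrocytes and of Cdh13 and Cdh20 in astrocytes, for the 4 groups (square male, circle female, line group mean). Cdh19 in astrocytes lies between 80.7 and 111 CPM in the GR-KO libraries and at 120.3 CPM or above in the GR-Con libraries, a split that is not seen in oligodendrocytes.

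Cdh13 rose in NR GR-KO astrocytes, from 104 and 95.0 to 172 and 143 CPM (0.60, SE 0.15, adjusted p = 0.0019), and stood at 90.4 and 139.9 in DR GR-Con and 149 and 143 in DR GR-KO. The call was lost without the female NR GR-Con or the male NR GR-KO library (adjusted p = 0.11 and 0.11). Over both rearings it rose by 0.48 (adjusted p = 0.022; 0.073 by the quasi-likelihood test), a call that held in 1 of 8 fits with a library left out (adjusted p = 0.056 to 0.16 in the others). The remaining 5 calls in astrocytes were members at least 4-fold higher in excitatory neurons than in astrocytes. Cdh8 rose from 19.4 and 18.2 to 34.0 and 42.0 CPM (0.95, adjusted p = 2.0e-05) and Cdh12 from 31.1 and 20.9 to 45.4 and 62.3 CPM (0.99, adjusted p = 5.0e-04). Pcdh15 rose from 26.0 and 41.5 to 58.2 and 73.0 CPM (0.90, adjusted p = 0.0022), Cdh9 from 4.11 and 4.03 to 7.71 and 8.72 CPM (0.95, adjusted p = 0.0063) and Cdh18 from 39.6 and 25.8 to 46.8 and 67.4 CPM (0.75, adjusted p = 0.030). Of these, Pcdh15 was lost without male NR GR-Con (difference 0.59, adjusted p = 0.16), Cdh9 without male or female NR GR-Con or female NR GR-KO (adjusted p = 0.13, 0.11 and 0.15) and Cdh18 without female NR GR-Con or female NR GR-KO (differences 0.48 and 0.43, adjusted p = 0.41 and 0.32). The quasi-likelihood test called 5 of the 7 members, without Cdh9 (adjusted p = 0.052) and Cdh18 (adjusted p = 0.11), and DESeq2 6, without Cdh9 (adjusted p = 0.25).

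In NR, where these 5 members rose, neuronal RNA in astrocytes was higher in GR-KO as well. The 9 neuronal markers, each seen in every astrocyte library, summed to 677 and 561 CPM in NR GR-Con, 1131 and 1087 in NR GR-KO, 609.9 and 784 in DR GR-Con and 864 and 841 in DR GR-KO. The part of neuronal RNA in these calls was not tested. OPCs also hold Cdh13. Of the 4 OPC markers, each seen in every astrocyte library, Pdgfra, Cspg4 and C1ql1 summed in astrocytes to 6.71 and 7.32 CPM in NR GR-Con, 7.11 and 9.15 in NR GR-KO, 6.18 and 3.51 in DR GR-Con and 4.39 and 5.70 in DR GR-KO. The fourth, Vcan, stood at 25.6 and 26.7 CPM in NR GR-Con, 70.4 and 88.9 in NR GR-KO, 48.4 and 51.2 in DR GR-Con and 126 and 118 in DR GR-KO. The first 3 overlapped between the NR groups, and Vcan did not. The study reports Vcan among genes raised in astrocytes by loss of GR. The part of OPC RNA in the call of Cdh13 was not tested. Cdh8 showed the same pattern in oligodendrocytes, from 14.0 and 12.8 to 28.6 and 39.0 CPM in NR (1.28, SE 0.22, adjusted p = 2.0e-06), where the neuronal sum was 422 and 358 in NR GR-Con and 655 and 790.0 in NR GR-KO. In DR 0 of 28 members were called in astrocytes by the likelihood ratio test, the quasi-likelihood test or DESeq2. By the likelihood ratio test 4 had an unadjusted p under 0.05, and 0.736% of all genes were called.

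Some neuronal and endothelial values also differed in NR. In L5PT neurons Cdh13 went from 291 and 248 to 496 and 689 CPM (1.14, SE 0.23, adjusted p = 4.2e-04) and Cdh4 from 184 and 174 to 115 and 76.3 CPM (-0.88, SE 0.22, adjusted p = 0.0084). Both were lost without the male or the female NR GR-Con library (adjusted p = 0.088 and 0.48 for Cdh13, 0.43 and 0.57 for Cdh4) and by the quasi-likelihood test (adjusted p = 0.27 and 0.29), and the female NR GR-KO library held 59 L5PT nuclei. In endothelial cells Cdh13 went from 32.9 and 31.5 to 128 and 128 CPM (2.00, adjusted p = 5.6e-05), which was lost by the quasi-likelihood test (adjusted p = 0.26), DESeq2 (adjusted p = 0.38) and without female NR GR-Con (adjusted p = 0.073), and these libraries held 27 to 72 endothelial nuclei. Pcdh18 in L4 neurons was called (2.85, adjusted p = 0.031) at 0.0191, 0.0413, 0.200 and 0.253 CPM, from 48 UMIs over the 8 libraries, and the call held in 0 of 3 fits with a library left out (adjusted p = 0.079 to 0.87). It was not called by the quasi-likelihood test (adjusted p = 0.90) or DESeq2 (adjusted p = 1.0). The other 7 calls in NR, in Pvalb interneurons, OPCs, oligodendrocytes, L5PT neurons and endothelial cells, ran from -1.88 to 1.61 on the log2 scale, and 1 of them, Cdh8 in OPCs, passed the quasi-likelihood test. Over both rearings Cdh19 and Cdh13 in astrocytes were the 2 calls among 365 pairs, where 0.395% of all pairs were called (0.174% higher, 0.222% lower). The quasi-likelihood test called 1 member pair and 0.196% of all pairs, and the count ran from 1 to 9 with single libraries left out.

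In DR 10 of 362 pairs passed the likelihood ratio test, of which 3 rose and 7 fell in GR-KO, where 0.513% of all pairs were called (0.319% higher, 0.194% lower). By the likelihood ratio test 66 member pairs had an unadjusted p under 0.05. The edgeR quasi-likelihood test called 0 member pairs and 0.00431% of all pairs, and DESeq2 called 9. The count was 3 without the female DR GR-KO library and 40 and 34 without the male and female DR GR-Con libraries, and 28 with sex as a term. Pcdh1 rose in L2/3 neurons from 25.6 and 30.0 to 45.8 and 42.0 CPM (0.72, SE 0.16, adjusted p = 0.0048), in L5IT by 0.54 (adjusted p = 0.047) and in L4 by 0.55 (adjusted p = 0.049). The Pcdh1 difference was above 0 in 8 of 8 excitatory types, which come from the same mice and are not separate support. Cdh6 fell in L6CT neurons from 78.7 and 74.5 to 32.4 and 41.7 CPM (by 1.04, SE 0.21, adjusted p = 6.4e-04) and in L6b neurons from 166 and 183 to 114 and 103 CPM (adjusted p = 0.018), with the NR libraries of both genotypes at 71.0, 72.5, 67.0 and 68.1 CPM in L6CT. Cdh9 fell in L4 neurons from 3.72 and 3.52 to 1.86 and 1.29 CPM (adjusted p = 0.0014) and in Pvalb interneurons from 272 and 248 to 182 and 176 CPM (adjusted p = 0.015). Pcdh20 fell in L4 (difference -1.09, adjusted p = 0.0034) and Pcdh19 in L4 (-1.17, adjusted p = 0.026; -0.68 without male DR GR-Con) and L6IT neurons (-1.47, adjusted p = 0.040). Each of the 10 calls was lost without 1 or both DR GR-KO libraries, for example Cdh6 in L6CT without the male (difference -0.84, adjusted p = 0.49), Cdh9 in L4 without the female (-0.94, adjusted p = 0.64) and Pcdh1 in L2/3 without either (0.67 and 0.77, adjusted p = 0.43 and 0.15).

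Rearing was compared within each genotype, to ask which members depended on visual experience. In GR-Con 44 of 368 pairs passed, 29 higher and 15 lower in DR, where 2.25% of all pairs were called (1.41% higher, 0.84% lower). The quasi-likelihood test called 18 member pairs and 0.495% of all pairs. Excitatory types held 34 of the calls (3.52% of all pairs) and inhibitory types 10 (0.798%). In non-neuronal types 0 of 75 pairs (0.313% of all pairs) were called by the likelihood ratio or quasi-likelihood test of edgeR or by DESeq2. By the likelihood ratio test 12 of them had an unadjusted p under 0.05. In GR-KO 44 of 416 pairs passed, 12 higher and 32 lower, where 3.66% of all pairs were called (1.69% higher, 1.96% lower), and 22 passed the quasi-likelihood test (0.857% of all pairs). This comparison covered 18 types, against 15 in GR-Con. Excitatory types held 22 of its calls (8 higher, 14 lower), inhibitory types 4 and non-neuronal types 18 (1 higher, 17 lower). Of the last, 8 were of members at least 4-fold higher in excitatory neurons. The shares of all pairs within these GR-KO classes are not given. With both genotypes in a fit 55 of 365 pairs passed, 28 higher and 27 lower, where 5.4% of all pairs were called (2.69% higher, 2.7% lower), and 31 passed the quasi-likelihood test (3.48% of all pairs). These comparisons share libraries with each other and with the genotype comparisons. Without single libraries the GR-Con count was 22 (male NR GR-Con), 24 (female NR GR-Con) and 75 (male DR GR-Con), the GR-KO count 100 (male NR GR-KO) and 23 (male DR GR-KO), and the count over both genotypes 31 (male DR GR-KO). With all 8 libraries in the fit the counts within genotypes were 29 in GR-Con and 28 in GR-KO, and with sex as a term that in GR-KO was 82.

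**Figure D3:**
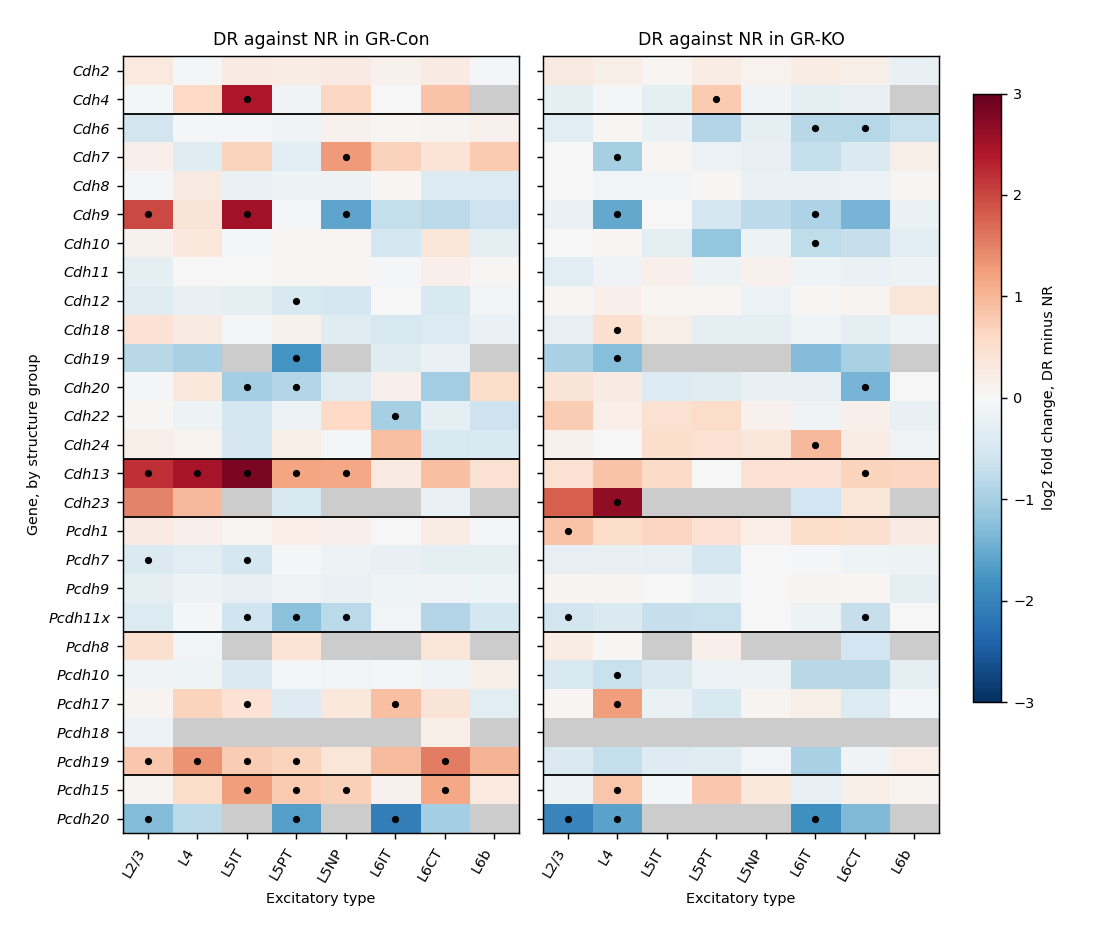
Log2 fold change of DR over NR for members (rows, by structure group) in 8 excitatory types, in GR-Con (left) and GR-KO (right), with dots at an adjusted p under 0.05 and grey where a pair was not tested. In GR-Con Cdh13 and Pcdh19 are above 0 in all 8 types, while Pcdh20 is below 0 wherever it was tested in both panels.

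In other mice and assays, the study lists Cdh13 among excitatory-neuron genes responding to experience at a later age, not at postnatal day 21. In these data Cdh13 (chr8:118283733-119324921, plus strand) rose in DR in GR-Con in 5 of 8 excitatory types and was above 0 in all 8. In L5IT neurons it went from 13.4 and 22.9 CPM in NR to 149 and 109 in DR (2.83, SE 0.28, adjusted p = 9.1e-21), in L2/3 from 99.1 and 106 CPM in NR to 574 and 384 in DR (2.18, adjusted p = 9.5e-16), in L4 from 23.4 and 26.3 CPM in NR to 184 and 85.8 in DR (2.46, adjusted p = 4.4e-08) and in L5PT from 291 and 248 CPM in NR to 642 and 596 in DR (1.19, adjusted p = 4.0e-11). In these types, which come from the same mice, the calls held with each library left out, although L4 was at adjusted p = 0.10 by the quasi-likelihood test. In L5NP (1.16, adjusted p = 0.0088) the call was lost without female DR GR-Con, where the difference was 0.61 (adjusted p = 0.15), and by the quasi-likelihood test (adjusted p = 0.11) and DESeq2 (adjusted p = 1.0). In GR-KO only L6CT neurons were called (0.68, adjusted p = 0.017). The male NR GR-KO library stood apart here. In L5IT neurons GR-KO was at 105 and 25.9 CPM in NR and 106 and 87.8 in DR, and in L2/3 at 363 and 107 in NR and 453 and 169 in DR, so that this library lay among those of DR. Over both genotypes Cdh13 rose in L6CT (0.80), L4 (1.66), L6IT (0.35) and L5IT (1.70), and in Pvalb interneurons from 442, 471, 558 and 422 CPM in NR to 665, 689, 731 and 628 in DR (0.53, adjusted p = 1.7e-05, held in 8 of 8 fits with a library left out). The L6IT and L5IT calls held in 3 of 8 and 2 of 8 such fits (adjusted p = 0.067 to 0.20 and 0.083 to 0.26 in the others), and were not made by the quasi-likelihood test (adjusted p = 0.072 and 0.14).

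**Figure D4:**
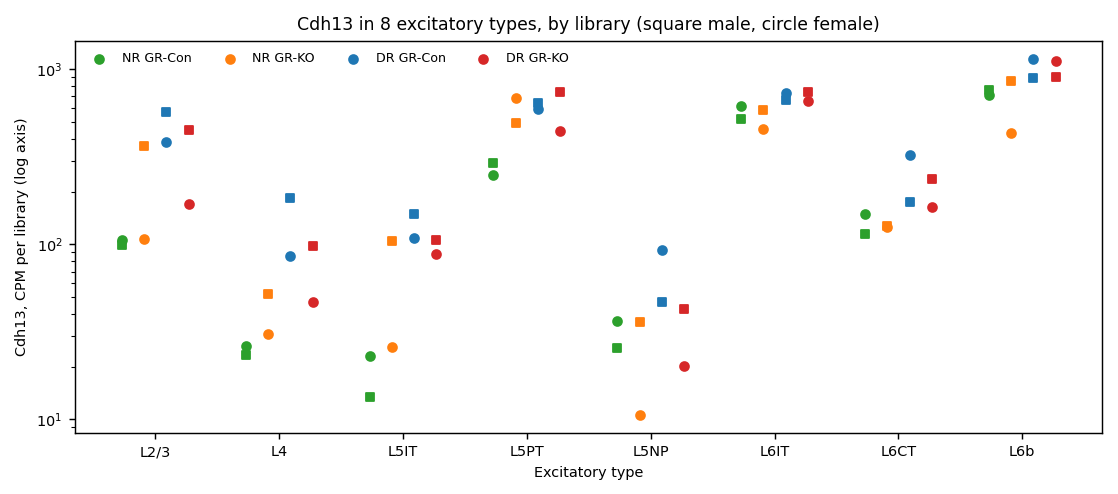
Cdh13 level in each library (CPM, log axis) in 8 excitatory types, coloured by group (square male, circle female). In L2/3 and L5IT the male NR GR-KO library lies at 363 and 105 CPM among the DR libraries, and the other NR libraries lie at 107 and 25.9 CPM or below.

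Cdh9 and Cdh4, which like Cdh13 were highest in Sst interneurons, moved with it in L5IT neurons of GR-Con. Cdh9 went from 2.59 and 2.03 CPM in NR to 11.9 and 14.9 in DR (2.53, SE 0.28, adjusted p = 3.0e-17) and Cdh4 from 2.00 and 2.74 CPM in NR to 11.5 and 14.1 in DR (2.43, SE 0.28, adjusted p = 5.4e-16), and both calls held with each library left out. The NR GR-KO libraries were at 14.9 and 3.32 CPM for Cdh9 and 23.0 and 4.43 CPM for Cdh4, so the male one again lay at the level of DR. The Sst marker list (2 of its 3 genes seen in every library) summed in L5IT neurons to 2.47 and 2.86 CPM in NR GR-Con, 25.7 and 4.23 in NR GR-KO, 15.4 and 11.96 in DR GR-Con and 10.6 and 12.1 in DR GR-KO, against 1319 CPM or more in Sst interneurons. The 4 general inhibitory markers summed to 5.41 and 4.06 CPM in NR GR-Con, 7.59 and 5.24 in NR GR-KO, 2.89 and 5.61 in DR GR-Con and 3.34 and 5.52 in DR GR-KO. The L4 list (2 of its 3 genes seen in every library) summed in L5IT neurons to 788 and 896 CPM in NR GR-Con, 402 and 716 in NR GR-KO, 315 and 429.9 in DR GR-Con and 320.0 and 479 in DR GR-KO. Of the 3 genes in this list only 1 was highest in L4 neurons, so its sum does not measure L4 RNA alone. The 5 libraries with most Cdh13 in L5IT neurons had the lowest 5 sums of this list. The part of Sst RNA, or of another make-up of the nuclei annotated as L5IT, in these differences was not tested.

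Pcdh15 (chr10:73099342-74649737, plus strand) rose in DR as well. In L5IT neurons of GR-Con it went from 518 and 460.5 CPM in NR to 1050.2 and 1278 in DR (1.25, SE 0.16, adjusted p = 1.8e-12, held in 4 of 4 fits with a library left out), and GR-KO was at 1055 and 655 in NR and 955 and 706 in DR. In L4 neurons, the excitatory type with most Pcdh15, the 4 NR libraries were at 2437, 2322, 2340.4 and 2241 CPM and the 4 DR libraries at 3032, 3892, 3574 and 4189.6. These did not overlap, and over both genotypes the rise was 0.69 (SE 0.12, adjusted p = 2.9e-06, held in 8 of 8 such fits). In GR-KO alone it was 0.83 (adjusted p = 1.1e-04) and was lost without female DR GR-KO (adjusted p = 0.11). L5NP rose by 0.52 over both genotypes (adjusted p = 7.8e-04, 8 of 8 fits). L5PT (0.79, adjusted p = 0.0099, 5 of 8 fits) and L6CT (0.67, adjusted p = 0.031, 2 of 8 fits) overlapped between rearings and were lost, among others, without male NR GR-Con (adjusted p = 0.087 and 0.18) and by the quasi-likelihood test (adjusted p = 0.11 and 0.083).

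Pcdh20 (chr14:88464743-88471396, minus strand) fell in DR in both genotypes. In L2/3 neurons it stood at 3.52 and 3.04 CPM in NR GR-Con, 2.75 and 2.52 in NR GR-KO, 1.73 and 1.02 in DR GR-Con and 0.607 and 0.668 in DR GR-KO, from 1049 UMIs in all. Every NR library lay above every DR library. Over both genotypes it fell by 1.62 (SE 0.24, adjusted p = 2.4e-09 by the likelihood ratio test and 0.0059 by the quasi-likelihood test), and the call held in 8 of 8 fits with a library left out. It was called in all 5 excitatory types in which it could be tested, and the rearings overlapped in none of them. These types come from the same mice, so Pcdh20 in them is not separate support. In L4 it went from 8.41, 5.62, 4.58 and 6.89 CPM in NR to 4.42, 3.52, 1.76 and 1.86 in DR (fell by 1.18, adjusted p = 5.2e-05, 8 of 8 fits). It fell by 1.96 in L6IT (adjusted p = 1.9e-05, 8 of 8 fits), by 1.67 in L5PT (adjusted p = 0.0025) and by 1.15 in L6CT (adjusted p = 0.0038). The L5PT and L6CT values rest on 79 and 121 UMIs, and their calls were lost without male NR GR-Con (adjusted p = 0.057) and male DR GR-KO (adjusted p = 0.057). L5PT was also lost by the quasi-likelihood test (adjusted p = 0.089), and both by DESeq2 (adjusted p = 0.066 and 0.053).

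Within genotypes Pcdh20 was called in 3 excitatory types each. In GR-KO it fell by 1.99 in L2/3 (adjusted p = 4.9e-10) and by 1.60 in L4 (adjusted p = 3.6e-06), both with each library left out, and by 1.84 in L6IT (adjusted p = 0.025), which was lost without female NR GR-KO, male DR GR-KO or female DR GR-KO (differences -1.01, -1.62 and -2.08, adjusted p = 0.18, 0.43 and 0.13). By the quasi-likelihood test L2/3 was at adjusted p = 0.051 and L6IT at adjusted p = 0.17 in GR-KO. In GR-Con it fell by 2.07 in L6IT (adjusted p = 9.2e-05), by 1.30 in L2/3 (adjusted p = 0.0021) and by 1.66 in L5PT (adjusted p = 0.034). Without female NR GR-Con all of these GR-Con calls were lost (adjusted p = 0.12, 0.065 and 0.18), at differences of -1.79, -1.38 and -1.89, and L2/3 and L5PT also without male NR GR-Con (adjusted p = 0.18 and 0.70) and L5PT without female DR GR-Con (adjusted p = 0.19). The quasi-likelihood test did not call these GR-Con differences (adjusted p = 0.26, 0.096 and 0.17).

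Pcdh19 (chrX:133582860-133688987, minus strand) rose in DR in GR-Con in 5 excitatory types and in Pvalb, Sst and Vip interneurons, the most types of any member there. In L4 it went from 11.9 and 13.4 CPM in NR to 41.1 and 23.1 in DR (1.36, SE 0.30, adjusted p = 6.5e-04), in L5PT from 40.1 and 39.9 CPM in NR to 66.6 and 61.8 in DR (0.67, adjusted p = 3.4e-04) and in L5IT from 22.6 and 27.8 CPM in NR to 46.5 and 39.2 in DR (0.76, adjusted p = 0.0013). L2/3 (0.80, adjusted p = 0.016) and L6CT (1.54, adjusted p = 0.0071) were called too, in nuclei of the same mice. All 5 calls were lost without male NR GR-Con (adjusted p = 0.15 in L4, 0.14 in L5PT, 0.24 in L5IT, 0.45 in L2/3 and 0.63 in L6CT), where the log2 differences were 1.27, 0.66, 0.61, 0.67 and 1.35 in the same order. Those in L5PT, L2/3 and L6CT were lost without female NR GR-Con as well (adjusted p = 0.13, 0.10 and 0.14), and L2/3 without male DR GR-Con (adjusted p = 0.069). Male DR GR-Con was the library that moved the differences in L4, L2/3 and L6CT most, and without it they were 0.86, 0.48 and 0.92. The quasi-likelihood test did not call L4 (adjusted p = 0.15), L2/3 (adjusted p = 0.12) or L6CT (adjusted p = 0.24). In GR-KO Pcdh19 was called in 0 of 17 types by either edgeR test or DESeq2, with 2 at an unadjusted p under 0.05, and in L4 these libraries were at 29.6 and 18.2 CPM in NR and 16.2 and 11.8 in DR.

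**Figure D5:**
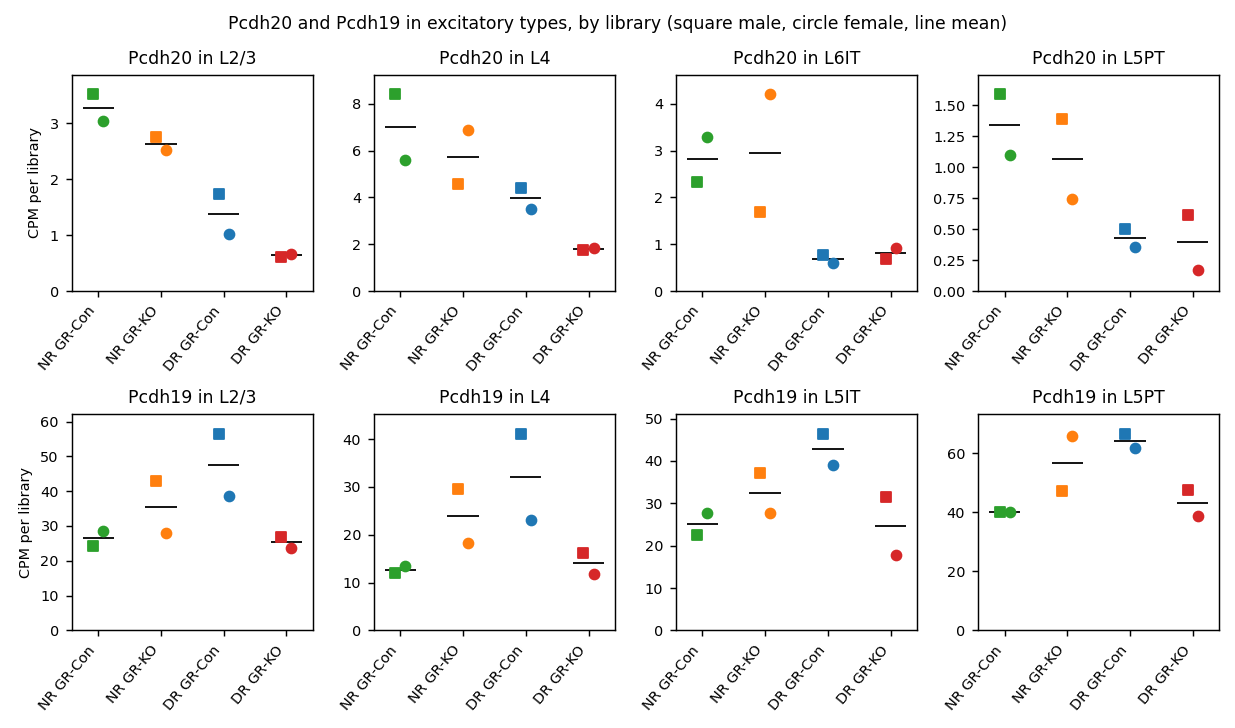
CPM per library of Pcdh20 (top) and Pcdh19 (bottom) in 4 excitatory types each, for the 4 groups (square male, circle female, line group mean). The highest DR library lies below the lowest NR library for Pcdh20 in each type shown, closest in L4 (4.42 and 4.58 CPM), and Pcdh19 has its highest group mean in DR GR-Con in each type shown.

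The stretch before the start sites of Pcdh20 and Pcdh19 is shown because these genes moved in opposite directions with rearing in GR-Con, and that of Cdh9 because it rose or fell by cell type. Each line gives the 250 bases before the annotated start (RefSeq, GRCm38.p6), 5′ to 3′ on the gene's strand, for Pcdh20 at chr14:88471397-88471646 (minus strand), Pcdh19 at chrX:133688994-133689243 (minus) and Cdh9 at chr15:16728665-16728914 (plus). The GENCODE gene model of Cdh9 starts at chr15:16728756, within this window, so part of the Cdh9 stretch, with its CCAAT box, lies inside that model. Capitals mark a CCAAT box, searched on both strands as CCAAT and ATTGG.
Pcdh20: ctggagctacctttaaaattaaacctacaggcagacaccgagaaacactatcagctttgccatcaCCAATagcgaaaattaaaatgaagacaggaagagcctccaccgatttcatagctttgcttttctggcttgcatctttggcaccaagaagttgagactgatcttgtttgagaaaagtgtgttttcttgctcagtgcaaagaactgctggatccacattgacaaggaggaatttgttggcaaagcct
Pcdh19: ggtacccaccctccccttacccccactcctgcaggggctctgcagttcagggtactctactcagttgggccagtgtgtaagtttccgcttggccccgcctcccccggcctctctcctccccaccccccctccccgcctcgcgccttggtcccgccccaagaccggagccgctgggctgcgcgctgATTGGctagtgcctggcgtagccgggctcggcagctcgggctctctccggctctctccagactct
Cdh9: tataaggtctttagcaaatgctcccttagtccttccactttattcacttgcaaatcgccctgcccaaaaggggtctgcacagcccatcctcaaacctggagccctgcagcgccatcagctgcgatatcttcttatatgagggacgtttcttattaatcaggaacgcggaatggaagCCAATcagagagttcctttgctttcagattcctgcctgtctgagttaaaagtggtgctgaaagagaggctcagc
Their GC content was 42.4%, 69.2% and 48.0%. A CCAAT box was found in 14 of the 22 members with an entry and in 37.5% of all 27025 genes with one, a gene being counted where any of its listed starts had a match in a window of this length. The AP-1 motif (TGAGTCA, on the other strand TGACTCA) and the CRE (TGACGTCA), both linked to activity-dependent transcription, were found in 0 of these members and in 5.16% and 1.77% of all genes. The GR half-site (AGAACA, on the other strand TGTTCT) was found in 2 members, Cdh23 and Pcdh10, and in 18.2% of all genes. These matches describe the letters of the window and no binding.

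Pcdh11x fell in DR in 4 excitatory types over both genotypes and was below 0 in all 8, which come from the same mice. In L5PT neurons it went from 193, 219, 155 and 218 CPM in NR to 90.6, 84.5, 100.2 and 131 in DR (fell by 0.96, SE 0.18, adjusted p = 6.1e-05), with no overlap. It fell by 0.49 in L2/3 (adjusted p = 0.0020), by 0.79 in L6CT (adjusted p = 0.0020) and by 0.65 in L5IT (adjusted p = 0.013, 4 of 8 fits with a library left out). In GR-Con alone it fell by 1.24 in L5PT (adjusted p = 2.2e-12), by 0.81 in L5NP (adjusted p = 7.3e-04; 0.066 without female DR GR-Con) and by 0.61 in L5IT (adjusted p = 0.030; 0.53 and 0.24 without female NR and female DR GR-Con). The quasi-likelihood test did not call L5PT (adjusted p = 0.053) and L5IT (adjusted p = 0.075) over both genotypes or L5IT in GR-Con (adjusted p = 0.095). Cdh9, which rose in L5IT of GR-Con, fell in L5NP neurons from 15.6, 18.7, 10.9 and 12.4 CPM in NR to 5.07, 6.29, 5.52 and 7.45 in DR over both genotypes (by 1.24, adjusted p = 1.7e-05, 8 of 8 fits). Cdh24 rose in L6IT neurons from 3.16, 3.06, 3.64 and 4.50 CPM in NR to 6.67, 5.09, 8.61 and 7.26 in DR (0.94, adjusted p = 1.3e-05, 8 of 8 fits).

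In GR-KO Cdh9 fell in DR in L4 neurons from 4.76 and 4.57 CPM in NR to 1.86 and 1.29 in DR (by 1.52, adjusted p = 9.8e-08) and Cdh23 rose there from 0.300 and 0.193 CPM in NR to 1.24 and 1.68 in DR (2.67, SE 0.39, adjusted p = 5.0e-09), both calls holding with each library left out. Cdh23 was highest in microglia, and the 4 microglial markers summed in L4 neurons to 18.1 and 19.8 CPM in NR GR-KO and 14.8 and 16.5 in DR GR-KO, with 4 of the 4 seen in every library. Cdh9 in L6IT (fell by 0.92, adjusted p = 0.0026) was lost without male or female DR GR-KO (adjusted p = 0.16 and 0.12) and by the quasi-likelihood test (adjusted p = 0.090), and its difference was -0.57 without female NR GR-KO. The largest differences lay in VLMC, where 9 of the 17 members tested were lower in DR and 19.9% of all genes were called, 792 of the 6109 genes being lower and 6.94% higher. Cdh8 went from 285 and 559 CPM in NR to 27.1 and 13.3 in DR (fell by 4.68, SE 0.56, adjusted p = 2.1e-14), Cdh12 fell by 3.86 (adjusted p = 1.4e-09) and Pcdh15 by 2.45 (adjusted p = 1.1e-07). These libraries held 20 to 65 VLMC nuclei. The 9 neuronal markers, 8 of them seen in every VLMC library, summed there to 4959 and 6033 CPM in NR GR-KO and 875 and 1435 in DR GR-KO, and the 4 VLMC markers to 567 and 634 and 1547 and 1201 CPM. The part of neuronal RNA in these differences was not tested.

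Whether the genotype difference depended on rearing was tested by the interaction, the difference in NR minus that in DR. It was called for 6 of 372 pairs, all above 0, where 0.181% of all pairs were called (0.139% higher, 0.0423% lower). By the likelihood ratio test 61 member pairs had an unadjusted p under 0.05. The edgeR quasi-likelihood test called 0 member pairs and 0.00276% of all pairs, and DESeq2 called 3. The count was 3 without male and 3 without female NR GR-Con, 19 and 13 without those of NR GR-KO and 20 and 12 without those of DR GR-Con, and 24 with sex as a term. Cdh9 in L4 neurons was at 2.83 and 2.79 CPM in NR GR-Con, 4.76 and 4.57 in NR GR-KO, 3.72 and 3.52 in DR GR-Con and 1.86 and 1.29 in DR GR-KO (interaction 1.91, SE 0.29, adjusted p = 3.7e-07, 8 of 8 fits with a library left out). In NR the GR-KO libraries were the higher and in DR the lower. Median UMIs per L4 nucleus did the same, at 17930 and 16397 in NR GR-Con, 23905 and 32204.5 in NR GR-KO, 18819 and 20179 in DR GR-Con and 16454 and 15659.5 in DR GR-KO. The part of depth in this call was not tested. Cdh9 in astrocytes (2.29, adjusted p = 3.1e-04) was lost without male DR GR-KO, where the interaction was 2.20. In oligodendrocytes (2.09, adjusted p = 0.046) the call of Cdh9 held in 2 of 8 fits. The neuronal sums given for astrocytes and oligodendrocytes were higher in NR GR-KO as well. In DR the astrocyte sums given above were higher in GR-KO too. The part of neuronal RNA in these interactions was not tested. Pcdh19 in L4 (2.08, adjusted p = 0.010, 4 of 8 fits), Pcdh19 in L6IT (1.93, adjusted p = 0.045, 1 of 8 fits) and Pcdh15 in L5IT (1.28, adjusted p = 0.037, 2 of 8 fits) made up the rest. The last was lost without male NR GR-KO (adjusted p = 0.13).

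Partners and relatives of the members were counted from fixed lists. Of the 12 catenins and adaptors, which link classical cadherins to actin, 3 of 199 pairs were called for genotype in NR (0.804% of all pairs of a gene and a type), 0 of 178 in DR (0.513% of all pairs), 5 of 178 and 7 of 210 for rearing in GR-Con and GR-KO (2.25% and 3.66% of all pairs), and 14 of 178 for rearing over both genotypes (7 higher, 7 lower; 5.4% of all pairs). In the comparisons within a genotype or rearing these shares lay near those of all pairs. Ctnna3 (alpha-T-catenin) fell in DR in L6CT neurons (-0.61, adjusted p = 2.8e-07), as did Ctnnal1 (-0.50, adjusted p = 1.0e-03), while Ctnnd2 (delta-catenin) rose there (0.30, adjusted p = 0.014). The 3 calls for genotype in NR all lay in astrocytes, where 7.11% of all genes were called. Ctnna3 rose there (1.31, adjusted p = 4.2e-04), as did Pkp4 (0.51, adjusted p = 0.014), and Vcl (vinculin) fell (-0.52, adjusted p = 0.017). Ctnna3 was at least 4-fold higher in excitatory neurons than in astrocytes, and the part of the neuronal RNA given above in its rise was not tested. Of the other cadherin superfamily genes, 19 of 24 were tested for rearing over both genotypes and 21 of 182 pairs were called, 14 higher and 7 lower in DR, where 5.4% of all pairs were called (2.69% higher, 2.7% lower). Dchs2, a large cadherin of the Dachsous type, rose in 5 types, by 2.13 in L2/3 (adjusted p = 4.2e-09) and 1.67 in L4 neurons (adjusted p = 2.2e-04). The quasi-likelihood test did not call Dchs2 in L5IT (adjusted p = 0.11) or L5PT neurons (adjusted p = 0.095). Of the 7 partners of delta-protocadherins, members of the WAVE complex and Taok2, 1 of 105 pairs was called in that comparison (again against 5.4% of all pairs), Cyfip2 in oligodendrocytes (0.77, adjusted p = 6.9e-05). For genotype in NR 4 of 190 superfamily pairs and 1 of 119 partner pairs were called (0.804% of all pairs). In DR 0 of 181 and 0 of 105 were called (0.513% of all pairs). The NR calls included Clstn2 (1.16, adjusted p = 1.3e-07) and Wasf1 (0.46, adjusted p = 0.017), both higher in GR-KO astrocytes. Both genes were at least 4-fold higher in excitatory neurons than in astrocytes, and the part of neuronal RNA was not tested.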

How the data were processed

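Nuclei of V1 were profiled in 8 libraries. The authors made 10x 3′ libraries, aligned and counted them with Cell Ranger 8.0.1 on mm10 with an added EGFP sequence, and used Seurat 5.3.0 to merge, cluster and annotate nuclei. They removed nuclei with extreme counts and DoubletFinder doublets, and no further doublet step was taken here. The deposited matrix holds UMI counts, all whole numbers, whose sums matched the cell table for all 102330 nuclei. The deposited percent of mitochondrial UMIs entered no test. Median UMIs per nucleus were 17759.5 and 15884 in NR GR-Con, 22827.5 and 29223 in NR GR-KO, 16968 and 20161 in DR GR-Con and 14928.5 and 14861 in DR GR-KO. Depth was thus higher in GR-KO in NR and lower in GR-KO in DR. Its part in the genotype, rearing and interaction calls was not tested. Low values carry counting error in addition to the spread between libraries.

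Counts were summed per library and deposited cell type, and a type was fitted where each library had at least 10 nuclei. edgeR 4.0.16 in R 4.3.3 (filterByExpr, TMM, two-sided likelihood ratio test) was run on all genes, with Benjamini-Hochberg adjustment within each type. The SE is the fold change over the root of its test statistic. Class sums were compared with the edgeR quasi-likelihood test, with library as a block. The code was tested on simulated data, in which the likelihood ratio test made more false calls than its threshold allows and the quasi-likelihood test fewer false calls than the former. Alternatives were the quasi-likelihood test, DESeq2 1.42.0, RLE factors, no filter, sex as a term, all 8 libraries, at least 30 or 100 nuclei, and each library left out.

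Members and gene lists were chosen with earlier results of these data known. Named pairs were the 6 with the smallest adjusted p in each comparison, up to 2 members per direction called in most excitatory types, and members called in astrocytes by genotype. For classes they were up to 4 members per direction with the largest difference among those at 5 CPM or more.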

Additional observations from a re-analysis of the deposited data

Results flagged for a closer look

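The effect of genotype differed between NR and DR by the interaction term of the likelihood ratio test for 6 pairs. The log2 values of the interaction were 1.91 for Cdh9 in L4 neurons, 2.29 for Cdh9 in astrocytes, 2.09 for Cdh9 in oligodendrocytes, 2.08 for Pcdh19 in L4 neurons, 1.93 for Pcdh19 in L6IT neurons and 1.28 for Pcdh15 in L5IT neurons. By the quasi-likelihood test 0 of them were called.

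In 2 of the 44 groups of 4 libraries checked, 1 library lay far from the other 3, and chance alone gives about 1 in 20. Cdh13 in L5IT neurons was at 105 CPM in the male NR GR-KO library and at 13.4 to 25.9 CPM in the other NR libraries. Pcdh15 in L5PT neurons was at 58.9 CPM in the female NR GR-KO library, which held 59 such nuclei, and at 96.6 to 104 CPM in the others.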

How the results depend on the processing

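With the quasi-likelihood test the counts of called pairs were 7 and 0 for genotype in NR and DR, 18 and 22 for rearing in GR-Con and GR-KO, 0 for the interaction, 31 for rearing over both genotypes and 1 for genotype over both rearings. DESeq2 gave 12 for genotype in NR and 3 for the interaction. With sex as a term the counts were 46 and 28 for genotype in NR and DR, 82 for rearing in GR-KO and 24 for the interaction. With all 8 libraries in the fit they were 8 for genotype in NR and 29 and 28 for rearing in GR-Con and GR-KO, and genotype in NR gave 11 without neuron-enriched genes in non-neuronal types. The median tau was 0.806 without the log, 0.273 with a pseudocount of 0.1, 0.416 with no minimum level and 0.384 in NR GR-Con alone.

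With each library left out in turn the counts ran from 9 to 41 and 3 to 40 for genotype in NR and DR, 22 to 75 and 23 to 100 for rearing in GR-Con and GR-KO, 3 to 20 for the interaction, 31 to 74 for rearing over both genotypes and 1 to 9 for genotype over both rearings. The class counts ran from 17 to 19, 15 to 16 and 12 to 13, and the tau from 0.346 to 0.353. Among the named results 120 fits with a library left out lost a call and 499 did not, and under the other alternatives 81 values lost it and 479 did not. Pcdh17 in neurons against non-neuronal cells turned to 0.68 with equal weight of cell types. The causes were not tested. Shares of all pairs are given for the likelihood ratio and quasi-likelihood tests only. Other moves in the counts may thus not be particular to the members. The minimum of 100 nuclei and the tau over libraries with at least 10 nuclei were chosen after seeing the data.

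No paired analysis was possible by replicate number, because the library names carry none. Each group held 1 male and 1 female, and a block by sex is the fit with sex as a term above. Members at a few CPM in small types rest on few UMIs, and with 2 libraries a group a difference that was not called is not shown to be absent.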
